A study of Homo sapiens with 6 samples.

Results

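The aryl hydrocarbon receptor (AHR), its partner, its repressors and its best known target genes were followed by name in the count table: AHR, ARNT, AHRR, TIPARP, CYP1A1, CYP1A2, CYP1B1, ALDH3A1 and UGT1A6. They are 9 of the 36517 genes in the table. The 6 libraries held polyadenylated RNA of MDA-MB-453, an established human breast cancer cell line, at day 3. The control group (n = 3) carried a lentivirus with the negative-control hairpin shNC, and the shtRF group (n = 3) a lentivirus with shtRF-1-Ser, a hairpin against tRF-1-Ser, a small RNA cut from a serine transfer RNA precursor. Both groups were therefore transduced, in 1 cell line, and the study describes the cells as stable lines. The study calls the libraries biological replicates without stating separate transductions. The tests weigh the group difference against the spread between these libraries, and variation between transductions may not be covered.

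AHR is a transcription factor of the bHLH-PAS family that rests in the cytosol with HSP90 and other chaperones. When a ligand such as dioxin, a combustion product or a tryptophan metabolite binds, AHR enters the nucleus, pairs with ARNT and binds dioxin response elements, whose core is GCGTG. The targets include cytochromes of the CYP1 family, conjugating and aldehyde-oxidising enzymes, and the repressors AHRR and TIPARP, which dampen the receptor in return. In mammary cells the pathway is known for metabolising oestrogens and carcinogens.

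The core letters GCGTG, read on both strands, were looked for in the 250 bases before each start in RefSeq (GRCh38.p14), because the targets are defined by binding of AHR and ARNT to this element. RefSeq windows were matched for 7 of the 9 genes, all but CYP1B1 and ALDH3A1, and 4 of the 7 held at least 1 match: CYP1A1, TIPARP, AHRR and UGT1A6. Some genes had several starts: the 7 genes had 11 windows, of which 5 held the core. Of all 35116 such windows of the genome, 32.2% held the core and 4.52% the longer form TNGCGTG, which contains it. A match to the core is therefore common. The windows of AHR, ARNT and CYP1A2 held none. The matches of CYP1A1, TIPARP and AHRR lie inside the gene spans deposited with the counts, which begin before these RefSeq starts. Elements farther from a start were not searched. The matches of CYP1A1 and TIPARP, which rose, and of UGT1A6, which was not called, are shown as short stretches on the strand of the gene, 5′ to 3′, with the core, or its reverse complement CACGC, in capitals. The match of UGT1A6 was the longer form, as was 1 of the 3 matches of AHRR, which was not called; those of CYP1A1 and TIPARP were not.
CYP1A1, chr15:74725569-74725597, minus strand: ccagggaaggagGCGTGgccacacgtaca
TIPARP, chr3:156674370-156674398, plus strand: cgcgagaaaggaCACGCcccctcgcggga
TIPARP, chr3:156674436-156674464, plus strand: cgaacgaacgcgCACGCgcgcgcaggggg
UGT1A6, chr2:233691490-233691518, plus strand: gaacaggaactcGCGTGccagccaggtgt

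The receptor and several of its targets were upregulated in the shtRF group, while ARNT and AHRR were not called. Of the 9 genes, 8 had enough reads to be tested by edgeR's quasi-likelihood test, and CYP1A2 had too few. At a Benjamini-Hochberg adjusted p under 0.05 over all 19628 genes tested, 5 of the 8 were called higher (AHR, TIPARP, CYP1A1, CYP1B1 and ALDH3A1), beside 20.6% of all genes. None of the 8 was called lower, beside 18.9% of all genes; 0 were lower at an unadjusted p under 0.05, and DESeq2 and limma also called 0. AHR, CYP1A1, CYP1B1 and ALDH3A1 rose by more than 2-fold, beside 2.66% of all genes higher by that much and 3.11% lower. The median log2 fold change was 1.01 over the 8 genes and 0.00 over all genes tested. ALDH3A1 passed the filter on low counts only through the shtRF libraries, so it could hardly enter the test without differing. AHR and CYP1A1 are also genes that the study singled out from these libraries, so their calls are not independent evidence. All 9 genes were chosen with earlier results of these data known, so their comparison with all genes is not independent evidence either. In bulk RNA, more cells with a transcript and more transcript per cell cannot be told apart.

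**Figure D1:**
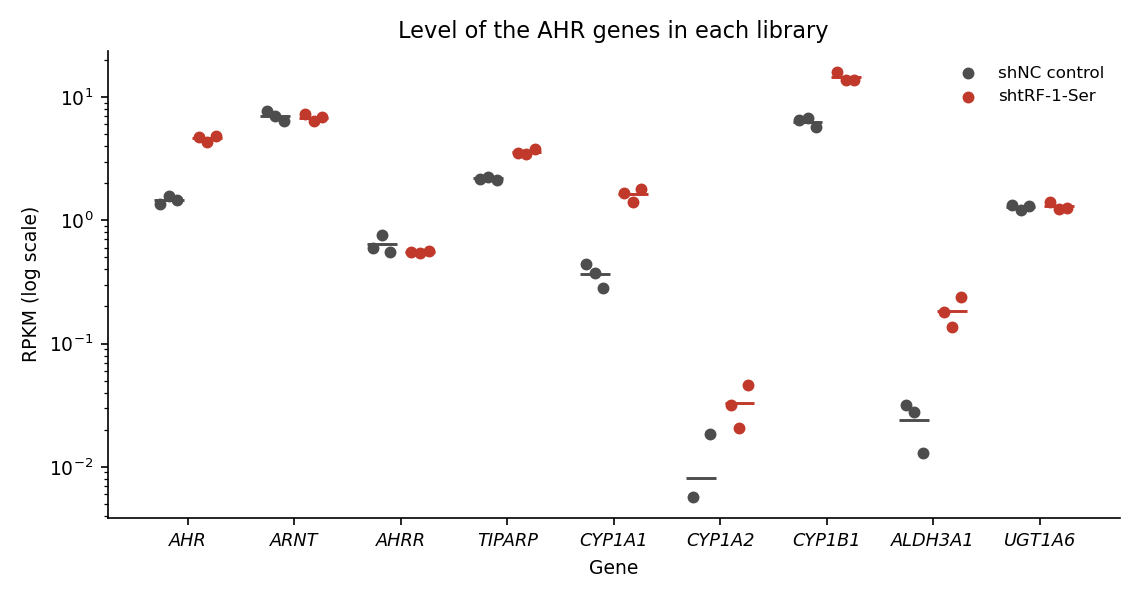
Level of each gene in each library, as RPKM (reads scaled to exon length and to the library's total) on a log axis; dark points are shNC control libraries, red points shtRF-1-Ser libraries and bars the group means (n = 3). AHR, TIPARP, CYP1A1, CYP1B1 and ALDH3A1 sit higher in every shtRF library than in any control library; 1 control library had no CYP1A2 read and is not drawn, but counts in the mean.

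AHR (chromosome 7, 17298622 to 17346152, plus strand, GRCh38) encodes the receptor itself. It had 580, 781 and 760 reads in controls, against 2206, 2074 and 2042 under the hairpin shtRF-1-Ser. Scaled for depth, these were 8.91, 10.3 and 9.52 CPM (counts relative to the TMM-scaled total of the library) in controls and 31.4, 30.2 and 32.9 CPM with the hairpin against tRF-1-Ser. All 3 shtRF libraries lay above all 3 controls, and neither group had a library apart from the others. The mean CPM went from 9.59 ± 0.714 to 31.5 ± 1.37 (SD, n = 3 each), a 3.28-fold rise, or 1.71 ± 0.08 (SE) on the log2 scale (edgeR, adjusted p = 1.03e-13).

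The AHR count includes reads that another gene also receives. RP11-507K12.1 runs on the same strand from 17299295 to 17467234 on chromosome 7 and holds 2373 of the 6661 exonic bases of AHR, or 35.6%. All 2373 shared bases are coding bases of AHR in GENCODE release 29 and make up 92.6% of its 2564 coding bases. The remaining 1150 exonic bases of RP11-507K12.1 lie downstream of AHR. GENCODE release 29 lists a gene with exactly this span, AC019117.2, as protein coding, so RP11-507K12.1 is not called noncoding here.

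RP11-507K12.1 was counted 467, 658 and 633 times in controls and 1859, 1745 and 1773 times in shtRF libraries. Its log2 fold change, 1.75 ± 0.08 (adjusted p = 3.38e-13, edgeR), differed from that of AHR by less than either standard error. Its counts were 80.5% and 84.3% of those of AHR in the first 2 control libraries, and no library fell below 80.5%. These counts cannot divide the reads of the shared exons between AHR and the longer transcript.

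The reads left to AHR after taking off the RP11-507K12.1 count come from the parts of AHR outside the shared exons, where few of its bases are coding, if shared reads were credited to both genes. They numbered 113, 123 and 127 in controls and 347, 329 and 269 with the hairpin against tRF-1-Ser. Every shtRF library again exceeded every control. Tested in place of the AHR count, they gave a log2 fold change of 1.51 ± 0.14 (adjusted p = 2.26e-08, edgeR). The subtraction may take off too much, since reads in the downstream exons of RP11-507K12.1 are taken off too. A smaller antisense gene, AC003075.4, shares 4.05% of the exonic bases of AHR. It had 55, 89 and 84 counts in controls and 218, 161 and 173 in shtRF libraries. Its log2 fold change was 1.41 (adjusted p = 4.16e-06, edgeR). Whether it received reads of AHR was not tested.

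**Figure D2:**
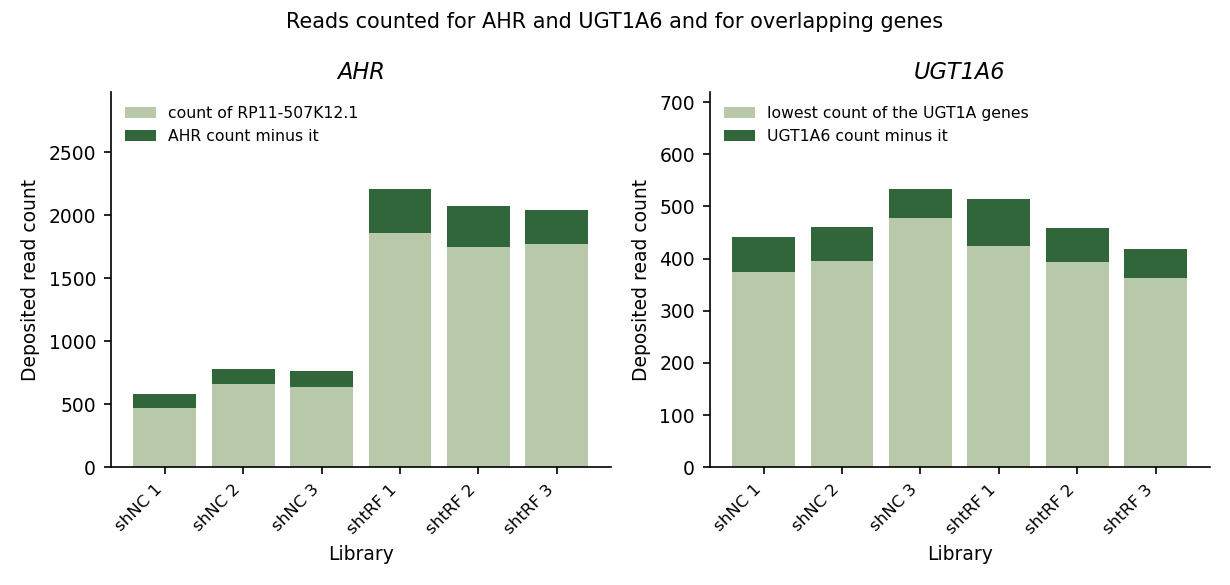
Stacked bars of deposited read counts per library for AHR (left) and UGT1A6 (right), split into the count of the gene that overlaps AHR, or the lowest count of the UGT1A genes, and what remains. In AHR both the shared and the remaining reads are higher in the 3 shtRF libraries (remaining 347, 329 and 269 against 113, 123 and 127); in UGT1A6 most reads are shared and the groups overlap.

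ARNT (chromosome 1, 150809705 to 150876768, minus strand) encodes the nuclear partner with which AHR binds DNA, and shares no exonic base with another gene of the table. It was at 49.7, 44.4 and 41.0 CPM in controls and 46.8, 43.2 and 45.8 CPM in shtRF libraries. The groups overlapped fully. The log2 fold change of 0.01 ± 0.07 (adjusted p = 0.943, edgeR) was small beside that of AHR.

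Of the repressors, TIPARP was called and AHRR was not. AHRR (chromosome 5, 304176 to 438291, plus strand) encodes a receptor-like protein that competes with AHR for ARNT. It had 295, 431 and 335 counts in controls and 297, 297 and 274 in shtRF libraries, or 4.81 ± 0.792 and 4.32 ± 0.0951 CPM. The groups overlapped, control 2 being the highest library, and the log2 fold change was -0.15 ± 0.13 (adjusted p = 0.382, edgeR). AHRR shares 3.18% of its exonic bases with PDCD6, a more abundant gene on the same strand.

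TIPARP (chromosome 3, 156673235 to 156706770, plus strand) encodes a mono-ADP-ribosyltransferase that marks AHR for breakdown. Its levels were 10.8, 11.1 and 10.6 CPM in controls and 17.6, 18.0 and 19.6 CPM in shtRF libraries. The groups were well apart, with an SD of 0.282 CPM in controls and 1.03 CPM in the shtRF group. TIPARP rose 1.70-fold (log2 fold change 0.76 ± 0.08, adjusted p = 6.83e-08, edgeR). The antisense gene TIPARP-AS1 shares only 0.733% of its exonic bases and had 72, 62 and 63 counts in controls against 31, 37 and 20 in shtRF libraries.

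CYP1A1, CYP1A2 and CYP1B1 encode the cytochromes that oxidise polycyclic hydrocarbons and oestrogens. CYP1A1 (chromosome 15, 74719542 to 74725610, minus strand), the usual readout of AHR activity, had 98, 95 and 77 counts in controls and 402, 349 and 396 in shtRF libraries. Each shtRF library had more than 3 times the reads of any control. The mean went from 1.24 ± 0.271 to 5.73 ± 0.652 CPM, a 4.63-fold rise with a log2 fold change of 2.21 ± 0.17 (adjusted p = 5.01e-10, edgeR). CYP1A1 shares no exonic base with another gene. Its level stayed low per length, so on the log2(RPKM + 1) scale, which compresses low values, the difference was 0.95 (adjusted p = 0.000181, limma).

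CYP1A2 (chromosome 15, 74748844 to 74756202, plus strand), an enzyme of the liver in the main, was near the limit of detection. It had 1, 0 and 4 counts in controls and 6, 4 and 8 in shtRF libraries. The groups met at 4 raw counts, and in CPM the lowest shtRF library (0.0582) lay just above the highest control (0.0501). Without the filter on low counts the log2 fold change was 1.93 (adjusted p = 0.388, edgeR), so no difference was detectable at this depth.

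CYP1B1 (chromosome 2, 38066973 to 38109902, minus strand), the CYP1 enzyme best known from the breast and other tissues outside the liver, was the most abundant of the 3. Its levels were 38.2, 39.7 and 34.2 CPM in controls and 95.5, 86.5 and 85.5 CPM in shtRF libraries. The groups did not overlap, and the mean rose 2.39-fold from 37.4 ± 2.83 to 89.2 ± 5.49 CPM (1.26 ± 0.06 on the log2 scale, edgeR adjusted p = 9.33e-13). The antisense gene CYP1B1-AS1 shares 11.3% of the exonic bases of CYP1B1 and rose less, by 0.38 ± 0.11 (adjusted p = 0.00826, edgeR), a call lost without shtRF replicate 1 (adjusted p = 0.0546) and under limma (adjusted p = 0.0887 and 0.12). With its counts taken off, CYP1B1 had a log2 fold change of 1.36.

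ALDH3A1 (chromosome 17, 19737984 to 19748943, minus strand) encodes an aldehyde dehydrogenase of the drug-metabolising battery. It was barely detected in controls, with 8, 8 and 4 counts, and had 49, 38 and 60 counts in shtRF libraries. The lowest shtRF library thus held more reads than the 3 controls together. The log2 fold change was 2.99 ± 0.46 (adjusted p = 2.08e-05, edgeR), and its standard error was the widest of the 8. The RPKM was 0.0242 ± 0.00998 in controls and 0.185 ± 0.0529 in the shtRF group, so that on the log2(RPKM + 1) scale the difference was 0.21 (adjusted p = 0.00497, limma). ALDH3A1 shares 2.50% of its exonic bases with an antisense gene that had at most 2 counts.

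UGT1A6 (chromosome 2, 233691607 to 233773300, plus strand) encodes a glucuronosyltransferase of phenols. It is 1 of 9 UGT1A genes that each join an exon of their own to the same downstream exons, and 64.4% of its exonic bases lie in other genes. It had 442, 460 and 533 counts in controls and 514, 459 and 419 in shtRF libraries. The groups overlapped, and the log2 fold change was 0.09 ± 0.10 (adjusted p = 0.547, edgeR). The other 8 UGT1A genes had log2 fold changes of 0.02 to 0.09; none was called by edgeR (0 at an unadjusted p under 0.05), by DESeq2 or by limma. UGT1A1, the bilirubin-conjugating member, was at 6.41 ± 0.393 and 6.51 ± 0.173 CPM.

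Most of these UGT1A counts lay in a part common to the whole locus. The lowest count in the locus was 375, 395 and 478 in controls and 425, 393 and 362 in shtRF libraries, and UGT1A8 stood at this count in all 6. What UGT1A6 had beyond it was 67, 65 and 55 in controls and 89, 66 and 57 in shtRF libraries. These reads also overlapped between groups, and tested in place of the full count they gave a log2 fold change of 0.29 ± 0.26 (adjusted p = 0.406, edgeR; a comparison added after the counts were seen). UGT1A6 and UGT1A1 had the most reads of their own in the locus, 187 and 164 over the 3 controls, against 0 for UGT1A8 and UGT1A9.

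**Figure D3:**
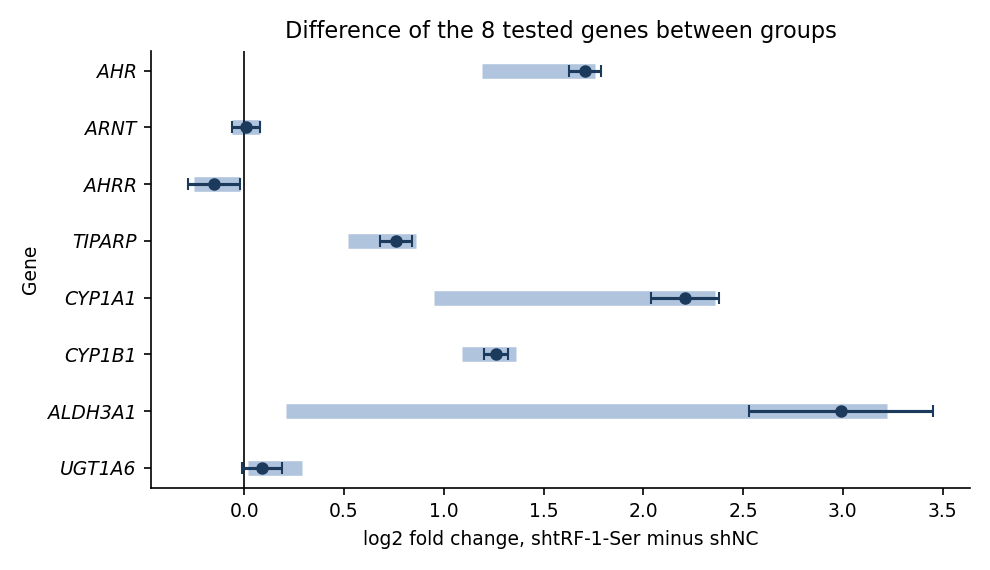
Log2 fold change (shtRF-1-Ser minus shNC) of the 8 tested genes: points are edgeR estimates, whiskers 1 standard error, and pale bars the range over the alternative analyses. The bars of AHR, TIPARP, CYP1A1, CYP1B1 and ALDH3A1 lie wholly above 0, the lowest end being 0.21 for ALDH3A1; ARNT spans -0.06 to 0.08.

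Levels between genes were compared per length, as mean RPKM. In controls the order was ARNT (7.04), CYP1B1 (6.33), TIPARP (2.18), AHR (1.47), UGT1A6 (1.28), AHRR (0.639), CYP1A1 (0.369), ALDH3A1 (0.0242) and CYP1A2 (0.0081). ARNT and CYP1B1 overlapped between libraries in that order, as did ALDH3A1 and CYP1A2, and the other neighbours did not. In the shtRF group the order was CYP1B1 (14.6), ARNT (6.83), AHR (4.64), TIPARP (3.58), CYP1A1 (1.64), UGT1A6 (1.31), AHRR (0.553), ALDH3A1 (0.185) and CYP1A2 (0.0327). CYP1B1 had passed ARNT, AHR had passed TIPARP, and CYP1A1 had passed UGT1A6 and AHRR, although CYP1A1 and UGT1A6 met at 1.42 RPKM in their nearest libraries; the other neighbours in this order did not overlap. The UGT1A6 and AHR values carry the shared reads described above.

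The rest of the pathway was read from 6 lists with 59 genes, of which 42 were tested. In these lists 9 genes were called higher (21.4%), 7 lower (16.7%) and 26 neither, and the median log2 fold change was 0.05. These shares were close to those of all genes, and the 8 UGT1A genes among them share reads. Genes named from a list beyond its member of highest mean CPM over the 6 libraries and its more than 2-fold changed members were chosen after their values were seen.

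Of the 4 chaperone genes that hold AHR in the cytosol, 1 rose (25%, beside 20.6% of all genes) and 1 fell (25%, beside 18.9%). HSP90AA1, the inducible HSP90, rose from 7320 ± 1020 to 11000 ± 961 CPM (0.58 on the log2 scale, edgeR adjusted p = 4.75e-06). PTGES3, the co-chaperone p23, fell from 170 to 146 CPM (-0.22 on the log2 scale, edgeR adjusted p = 0.0023). HSP90AB1, the constitutive HSP90, had a log2 fold change of 0.12 and did not pass the test (adjusted p = 0.162, edgeR), but was called higher without control 3 (0.20, adjusted p = 0.0303) and without shtRF 1 (0.18, adjusted p = 0.0198).

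Of 13 other bHLH-PAS proteins, relatives of AHR and ARNT, 7 were tested. Among the 7, 1 rose (14.3%, beside 20.6% of all genes) and 2 fell (28.6%, beside 18.9%), with a median of -0.32. That median was the value of NPAS2, which had 22 to 74 counts per library and was not called (adjusted p = 0.518, edgeR). The hypoxia factors HIF1A and EPAS1, which also pair with ARNT, fell by 0.36 and 0.24 on the log2 scale (adjusted p = 5.09e-05 and 0.00157, edgeR). CLOCK, the circadian factor, went from 54.4 to 60.8 CPM (0.16 on the log2 scale, edgeR adjusted p = 0.0359), a call that was lost in 9 of 15 alternatives, among them the omission of control 1 or 2 or of any shtRF library (adjusted p up to 0.225). ARNT2, the paralogue of ARNT, had at most 10 counts in a library and was not tested.

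The 8 coactivators and corepressors had a median of 0.00, with 2 called higher (25%, beside 20.6% of all genes) and 1 lower (12.5%, beside 18.9%). NCOA2 and CREBBP rose by 0.25 and 0.22 on the log2 scale, and NCOA1 fell by 0.17, a call lost when any 1 library was left out (adjusted p from 0.0509 to 0.165). SMARCA4, the most abundant and the ATPase of the chromatin remodeller BAF, was at 510 ± 11.1 and 507 ± 27.8 CPM.

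Of 16 other genes described as AHR targets, 8 were tested. Of the 8, 4 rose (50%, beside 20.6% of all genes) and 2 fell (25%, beside 18.9%). Their median was 0.75, beside 0.00 over all genes tested. NQO1, a quinone reductase, rose from 212 ± 4.49 to 346 ± 6.95 CPM (0.71 on the log2 scale, edgeR adjusted p = 3.08e-10). AREG, a ligand of the EGF receptor, rose by 0.78, HES1, a repressor downstream of Notch, by 0.89, and XDH, xanthine dehydrogenase, from 6.41 to 12.8 CPM, just under 2-fold. NFE2L2, the regulator of the antioxidant response, fell by 0.19. CDKN1B and IL1B were not called, and the others, among them CYP2S1 and ABCG2, had at most 10 counts in any library.

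SLC7A5, an importer of tryptophan and other large amino acids, moved the other way. It was at 34.5, 28.4 and 15.8 CPM in controls and 7.39, 8.63 and 8.38 CPM in shtRF libraries. Control 3 was low for its group but still above every shtRF library. SLC7A5 fell by 1.69 ± 0.17 on the log2 scale (adjusted p = 5.78e-08, edgeR), by 1.95 without control 3 and by 1.45 without control 1.

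The listed enzymes of tryptophan and kynurenine metabolism, a source of AHR ligands, had a median of 0.05 over 7 tested genes of 10. Not all of them form kynurenine, and KMO and KYNU, among others, act on it. The median therefore does not describe kynurenine formation. TDO2, which opens the indole ring of tryptophan, fell from 17.7 ± 0.859 to 6.81 ± 0.506 CPM (-1.38 on the log2 scale, edgeR adjusted p = 3.31e-11). Its counts were 1144, 1407 and 1351 in controls and 451, 507 and 411 in shtRF libraries, with no overlap. IDO1 and IDO2, which catalyse the same step, had at most 2 counts in any library. IL4I1, an amino acid oxidase, rose from 14.2 ± 0.773 to 18.0 ± 2.11 CPM (0.34 on the log2 scale, edgeR adjusted p = 0.00283), a call lost under limma (adjusted p = 0.0653 and 0.073). It shares 13.1% of its exonic bases with NUP62 on the same strand. NUP62 had 2555, 3176 and 3232 counts in controls and 3312, 2958 and 2589 in shtRF libraries. Whether IL4I1 received reads of NUP62 was not tested.

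**Figure D4:**
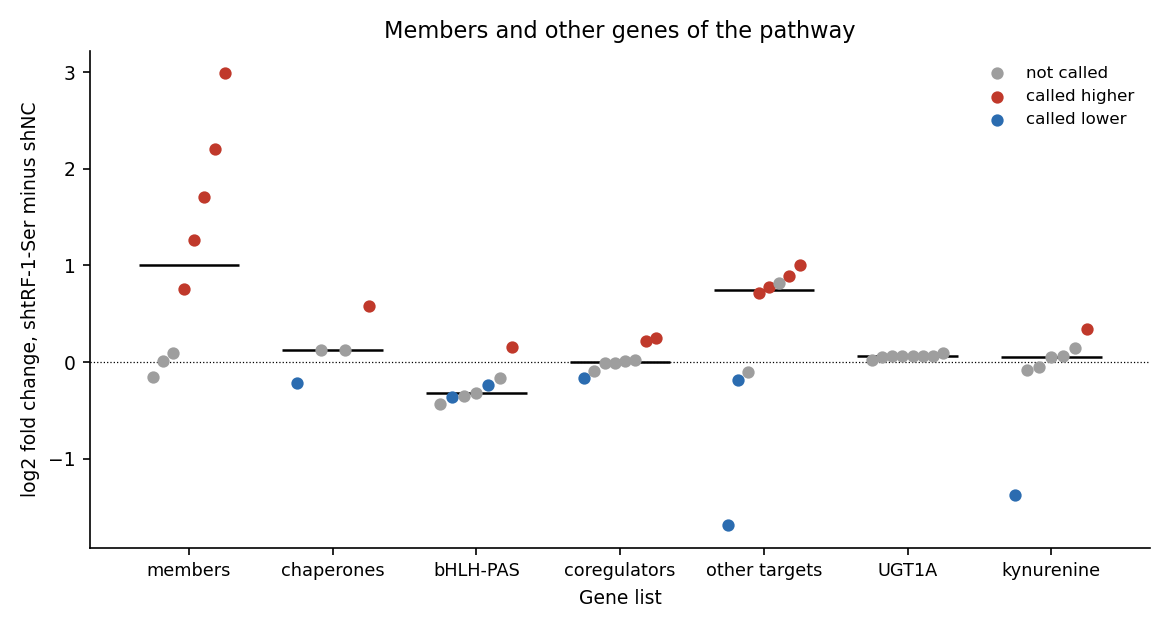
Log2 fold change (shtRF-1-Ser minus shNC) of every tested gene, by list; red points were called higher, blue points lower and grey points neither (edgeR, adjusted p under 0.05), and bars are list medians. The first column holds the 8 tested AHR genes (median 1.01) and the fifth the other described targets (median 0.75), where SLC7A5 is the lowest point at -1.69.

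The genes whose pattern over the 6 libraries lay nearest to AHR, by root mean square distance of centred log2(CPM + 1) among 14694 genes, were NRP1 (0.0548), DST (0.0695) and CAPN8 (0.0761). NRP1, a co-receptor for semaphorins and VEGF, went from 4.23 to 15.7 CPM. DST, which links the cytoskeleton to adhesion sites, went from 207 to 603 CPM, and CAPN8, a calpain protease, from 76.6 to 224 CPM. CAPN8 (0.0937) was also the nearest to CYP1A1 among 14696 genes on this scale. MT-TI (0.11), a mitochondrial transfer RNA, and PAQR5 (0.122), a membrane progesterone receptor, followed. PAQR5 went from 1.80 to 7.51 CPM. The log2(CPM + 1) scale compresses changes at low levels, such as that of CYP1A1 (mean 1.24 CPM in controls). The edgeR log2 fold change was 2.21 for CYP1A1, against 1.54 for CAPN8, 1.5 for MT-TI and 2.06 for PAQR5. A short distance to CYP1A1 therefore does not mean a fold change of the same size.

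Totals ran from 63541413 to 78917459 counts per library, so AHRR rested on 274 to 431 reads, while CYP1A2 and the controls of ALDH3A1 rested on 8 or fewer. Luminal epithelial markers were present in all libraries, their 7 genes summing to 10100 to 10900 CPM in controls and 12800 to 14100 CPM in the shtRF group; KRT8, KRT18 and XBP1 rose and ERBB2 fell. Of 7 markers the line should lack, all but COL1A1 had at most 26 counts, those of leukocytes (PTPRC) and endothelium (PECAM1) at most 10. The 7 summed to 30.0 to 35.6 CPM in controls and 21.3 to 21.8 CPM in the shtRF group, chiefly through COL1A1, a collagen gene, which fell by 0.62 on the log2 scale. The part of these shifts in the results on the AHR genes was not tested.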

How the data were processed

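Stranded mRNA libraries of MDA-MB-453 cells were sequenced as read pairs; groups were taken from the sample titles. The authors deposited raw read counts per gene with exon coordinates. Whether reads were counted by strand is not stated in the sources used here, so antisense overlaps may also share reads. The submitters' processing notes name Trimmomatic 0.36, featureCounts (Subread 1.5.1), edgeR 3.12.1 and GRCh38; the aligner is not given in the sources used here. Of the lowest counts (1 to 4), 75.4% were even, against 50.4% of high counts, so both mates of a pair may have been counted. A deposited RPKM table, held only in part, was not used; RPKM was computed from counts, length and library total.

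All 6 libraries were fitted with edgeR 4.0.16 (R 4.3.3): filterByExpr (minimum count 10), TMM scaling (factors 0.961 to 1.03) and the quasi-likelihood test with group as the only term. The 9 genes and the lists were chosen with earlier results of these data known. Genes named were the 9 members, genes sharing at least 10% of the exonic bases of a member, list genes called with a log2 fold change over 1 in size, the gene of highest mean CPM in each list, and the 3 nearest patterns of AHR and CYP1A1. The values of 1 list gene are not reported here. Exon overlap was computed from the deposited coordinates. CPM means are given ± SD and fold changes ± SE.

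Alternatives were RLE and upper quartile scaling, 2 other filters, DESeq2 1.42.0, limma 3.58.1 on log2(RPKM + 1) and log2(RPKM + 0.1), halved counts, a replicate block, omission of each library, and counts minus those of the overlapping gene. Tested on simulated data for this comparison (19272 genes), edgeR recovered 97 of 100 genes changed by 1 on the log2 scale and 100 of 100 changed by 2, with 12 false calls among 209. The changed genes were drawn only from those with more reads, so the recovery does not cover counts as low as those of ALDH3A1 and CYP1A2.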

Additional observations from a re-analysis of the deposited data

How the results depend on the processing

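Each of the 8 tested genes kept its side of the threshold under every alternative that could give a value. The 5 called genes also kept their direction, while ARNT, which was not called, ran from -0.06 to 0.08. The number called higher was 5 under each, apart from 4 with at least 10 counts required in every library, which drops ALDH3A1, and the number called lower was 0. When each library was left out in turn, the log2 fold change ran from 1.66 to 1.76 for AHR, 2.05 to 2.36 for CYP1A1, 1.2 to 1.29 for CYP1B1, 0.72 to 0.79 for TIPARP and 2.67 to 3.22 for ALDH3A1. List genes called higher numbered 7 to 10 and lower 6 to 7. Over all genes, 2900 to 4123 were called higher and 3053 to 4174 lower. With the replicate block the counts were 5 higher and 0 lower among the 8, and 4123 and 3776 over all genes; samples sharing a number correlated by only 0.02 to 0.06 in their deviations from the group means, so the numbers were not treated as pairs. Subtraction of the overlapping gene gave no value for AHRR, where PDCD6 has the larger count. Depth limits CYP1A2 and ALDH3A1, and shared exons limit AHR and UGT1A6.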
